A study of Mus musculus with 6 samples.

Results

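Genes of melanin synthesis and the melanosome were followed in bulk RNA of mouse retina. The set holds 10 genes, Tyr, Tyrp1, Dct, Pmel, Slc45a2, Oca2, Slc24a5, Mlana, Gpr143 and Mitf, chosen by gene symbol, and all 10 were found among the 55450 genes of the deposited table. The 6 libraries come from retina of C57BL/6 mice, a black strain, at 8 weeks of age. By their labels 3 libraries are Myrf-kd, which the design describes as Myrf +/−, and 3 are wild type (WT), and no other allele or agent is given. Which part of Myrf is altered, and whether each library is a separate animal, is not stated, so p-values measure only the spread among these libraries, which may be technical in part. The estimated counts summed to between 50695091 and 70298511 units per library, with about 4 units per sequenced fragment. The rod transducin gene Gnat1, a marker of retina, was high in every library, between 2926 and 3329 FPKM (fragments per kilobase of transcript, scaled to library depth). Myrf, the targeted gene, was between 0.279 and 0.382 FPKM in the Myrf-kd libraries, against 0.359 to 0.463 FPKM in WT, with a log2 fold change of −0.29 ± 0.19 (SE) that did not pass the test (edgeR adjusted p = 0.733).

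Melanin is made inside the melanosome, a lysosome-related organelle. Tyrosinase oxidises tyrosine, and its relatives Tyrp1 and Dct act on later intermediates. Pmel forms the fibrils on which pigment is laid down, the transporters Slc45a2, Oca2 and Slc24a5 set the ionic conditions of the organelle, and the transcription factor Mitf drives most of these genes. In the eye, pigment is made by the retinal pigment epithelium, by melanocytes of the choroid and iris, and by the pigmented layer of the ciliary body and iris, and neurons of the retina make none. Pigmented tissue left attached to a dissected retina can bring these transcripts into its RNA. In bulk RNA, fewer cells of a type and less RNA per cell cannot be told apart.

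Mitf is known to bind the M-box, an extended CATGTG element, in promoters of melanocyte genes. RefSeq promoters (GRCm38.p6) were at hand for 6 of the 10 genes, and the 250 bases before each start site were searched on both strands. The 9 letters TCATGTGCT were found for Tyr, Tyrp1 and Dct, and in 0.335% of all 32851 promoters of that length. They are shown because the 3 genes of the tyrosinase family share them. The levels of these genes across libraries, given further on, were alike only in part. Myrf-kd 1 was the highest Myrf-kd library for all 3 genes. Among all libraries WT 3 was the highest for Tyr, and Myrf-kd 1 for Tyrp1 and Dct. The capitals mark the 9 letters, which begin 22 bases before the RefSeq start in Tyr, 47 in Tyrp1 and 151 in Dct. For Tyrp1 that start, 80834213, lies inside the gene span of the deposited table, which begins at 80834123. The Tyrp1 letters therefore lie within that span. The Tyrp1 stretch is shorter because an annotated GENCODE exon covers its surroundings.
Tyr (chr7:87493513-87493579, minus strand): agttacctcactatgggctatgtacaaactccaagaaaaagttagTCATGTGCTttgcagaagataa
Tyrp1 (chr4:80834156-80834184, plus strand): ggggagggagTCATGTGCTgcctagtagt
Dct (chr14:118052344-118052442, minus strand): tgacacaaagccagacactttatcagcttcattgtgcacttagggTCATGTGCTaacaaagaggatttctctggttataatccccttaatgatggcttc
The 6-letter core CATGTG, with its reverse complement, was also present for Oca2 and Slc24a5, and was found in 12.3% of all promoters. The 3 Mitf promoters held neither this core nor CACGTG. Such a match is a description of letters and not a measured binding site.

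Which of these genes differed between Myrf +/− and wild-type retina was asked with edgeR's quasi-likelihood test over 13679 genes. None of the 10 passed, and 0 had an unadjusted p under 0.05 by edgeR. DESeq2 and limma, the other tools run, also called 0 of the 10. Over all genes tested, 6 passed (0.0439%), 0.0292% with higher and 0.0146% with lower levels in Myrf-kd, and 7.47% had an unadjusted edgeR p under 0.05. Estimates were higher in Myrf-kd for 5 of the 10 genes (51.1% of all genes tested) and lower for the other 5 (48.9% of all genes tested). The median log2 fold change was 0.06, against 0.00471 over all genes. In 0 of 10 genes did the FPKM values of the groups separate, which they did in 14.5% of all genes. The 95% intervals were wide: they reached from 47.8% to 103% of WT for Tyr and from 51.5% to 377% of WT for Mlana. A rise of 1.5-fold lay outside the interval for Tyr and Pmel, and a fall of 1.5-fold lay outside it for Slc24a5 and Mitf. For the other 6 genes the interval held a change of that size in both directions. In the order of mean FPKM, Pmel (2.89), Dct (2.85), Slc24a5 (2.53), Tyrp1 (2.34) and Mlana (2.00) came first. Mitf followed at 0.925, then Oca2 at 0.409, Tyr at 0.339, Slc45a2 at 0.131 and Gpr143 at 0.0771. The first 5 reached the minimum mean of 1 FPKM used for other genes, and the last 5 were kept in the fit whatever their level. The ranges of those first 5 over the libraries overlapped, and their order was not tested.

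**Figure D1:**
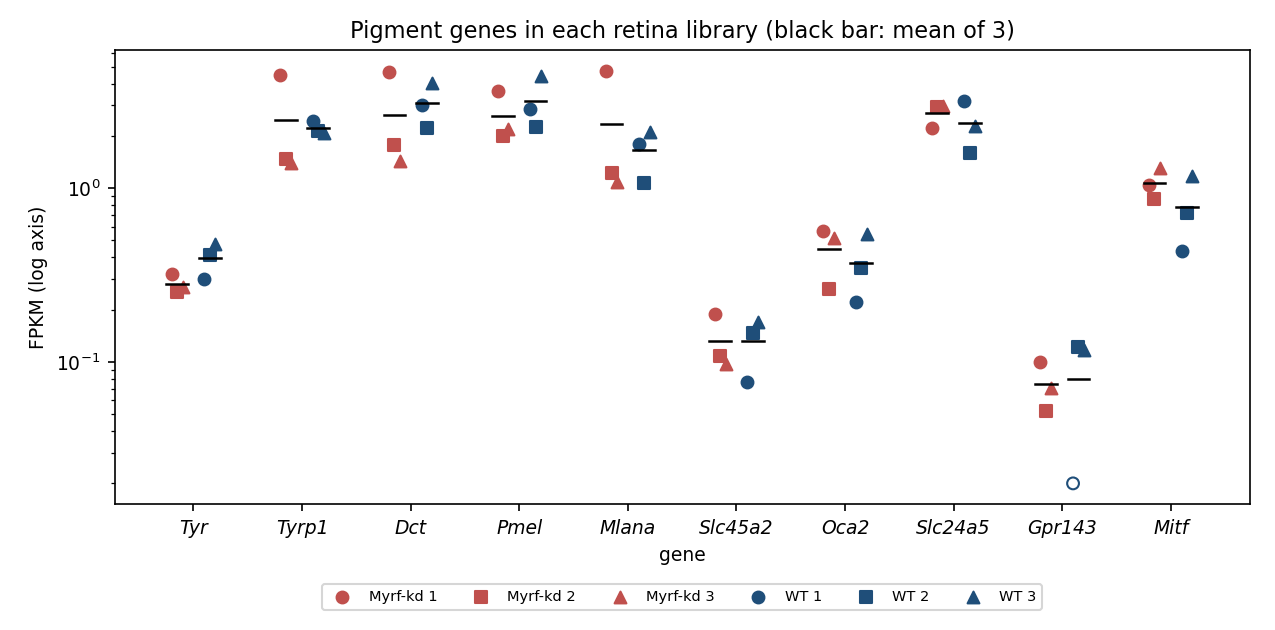
FPKM (log axis) of the 10 pigment genes in each of the 6 libraries, with Myrf-kd in red, WT in blue, marker shapes for the replicate number and a black bar for the mean of 3. Myrf-kd 1 lies above the other 5 libraries for Tyrp1, Dct, Mlana, Slc45a2 and Oca2, and the open circle stands for Gpr143 in WT 1, which had no reads and is drawn at the foot of the axis.

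Tyrosinase (Tyr, ENSMUSG00000004651, chromosome 7, 87424771 to 87493512, minus strand, GRCm38 as for all positions here), the rate-limiting enzyme of melanin synthesis, stood at 0.321, 0.253 and 0.271 FPKM across Myrf-kd 1, 2 and 3. Across WT 1, 2 and 3 the levels were 0.300, 0.412 and 0.477 FPKM. Myrf-kd 2 and 3 lay below all WT libraries and Myrf-kd 1 lay above WT 1, so the groups overlapped. The means were 0.281 ± 0.0353 and 0.396 ± 0.0896 FPKM (SD, n = 3 each), and each library held between 32 and 68 fragments. Tyr had the smallest p of the 10 genes, with a log2 fold change of −0.51 ± 0.23 (SE) and an edgeR adjusted p of 0.685.

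Tyrp1 (ENSMUSG00000005994, chromosome 4, 80834123 to 80851718, plus strand), a tyrosinase relative that acts late in the making of brown-black eumelanin, was at 4.49, 1.47 and 1.40 FPKM across Myrf-kd 1, 2 and 3, against 2.45, 2.15 and 2.09 FPKM across WT 1, 2 and 3. Myrf-kd 1 was the highest library and the other 2 Myrf-kd libraries were the lowest, with the WT libraries close together between them. The SD was 1.77 FPKM among Myrf-kd libraries and 0.192 FPKM among WT libraries. The fitted log2 fold change was 0.13 ± 0.46 (SE; edgeR adjusted p = 0.954).

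Dct (ENSMUSG00000022129, chromosome 14, 118012790 to 118052185, minus strand), the dopachrome tautomerase gene, showed the same arrangement within Myrf-kd, at 4.66, 1.78 and 1.43 FPKM in libraries 1, 2 and 3. WT 1, 2 and 3 were at 3.00, 2.22 and 4.01 FPKM. Myrf-kd 1 was 1.16 times the next library, WT 3, and Myrf-kd 2 and 3 lay below all 3 WT libraries. With 166 to 514 fragments per library Dct was the deepest of the 10 genes. Its log2 fold change was −0.24 ± 0.46 (SE; edgeR adjusted p = 0.903).

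The structural gene Pmel (ENSMUSG00000025359, chromosome 10, 128704195 to 128715627, plus strand), whose product forms the amyloid fibrils of early melanosomes, was at 3.64, 2.00 and 2.18 FPKM across Myrf-kd 1, 2 and 3, against 2.84, 2.26 and 4.42 FPKM across WT 1, 2 and 3. WT 3 and Myrf-kd 1 were the high libraries, and the log2 fold change was −0.30 ± 0.33 (SE; edgeR adjusted p = 0.815). Mlana (ENSMUSG00000024806, chromosome 19, 29697824 to 29708634, plus strand), a small melanosomal membrane protein gene also known as melan-A, was at 4.72, 1.23 and 1.08 FPKM across Myrf-kd 1, 2 and 3, against 1.80, 1.08 and 2.10 FPKM across WT 1, 2 and 3. Myrf-kd 1 was 2.25 times the highest other library, and the remaining 5 libraries overlapped between the groups. Mlana had the highest estimate of the 10 genes, a log2 fold change of 0.48 ± 0.60 (SE; edgeR adjusted p = 0.844).

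The transporter genes Slc45a2 and Oca2, both known from forms of oculocutaneous albinism, were low. Oca2 (ENSMUSG00000030450, chromosome 7, 56239760 to 56536518, plus strand), which encodes a melanosomal chloride channel, was at 0.564, 0.262 and 0.515 FPKM across Myrf-kd 1, 2 and 3, against 0.221, 0.347 and 0.545 FPKM across WT 1, 2 and 3. Each group held low and high libraries for Oca2, and its log2 fold change was 0.25 ± 0.42 (SE; edgeR adjusted p = 0.888). Slc45a2 (ENSMUSG00000022243, chromosome 15, 11000721 to 11029233, plus strand) was at 0.189, 0.108 and 0.0971 FPKM across Myrf-kd 1, 2 and 3, against 0.0768, 0.147 and 0.170 FPKM across WT 1, 2 and 3. No library held more than 11 fragments of Slc45a2 and WT 1 held 4, and the 95% interval reached from 49.5% to 199% of WT (edgeR adjusted p = 0.996).

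Slc24a5 (ENSMUSG00000035183, chromosome 2, 125068124 to 125088677, plus strand), a potassium-dependent sodium-calcium exchanger gene linked to skin colour, was at 2.22, 2.92 and 2.98 FPKM across Myrf-kd 1, 2 and 3, against 3.19, 1.59 and 2.29 FPKM across WT 1, 2 and 3. Myrf-kd 1 was the lowest Myrf-kd library here, the reverse of its place in Tyrp1, Dct and Mlana, and the log2 fold change was 0.18 ± 0.26 (SE; edgeR adjusted p = 0.862). The 3′ end of Slc24a5 runs into Myef2, a gene on the opposite strand, over 4050 bases, and 39.5% of the annotated exon bases of Slc24a5 are also exon bases of Myef2. Myef2 was between 9.22 and 15.6 FPKM, a mean 5 times that of Slc24a5. No source used here states whether counting used strand. Reads of both genes therefore cannot be told apart in the shared stretch, and the Slc24a5 level is uncertain. Pmel shares 34 exon bases with Cdk2, which was at most 0.677 FPKM, and the other 8 genes share none with another annotated gene.

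**Figure D2:**
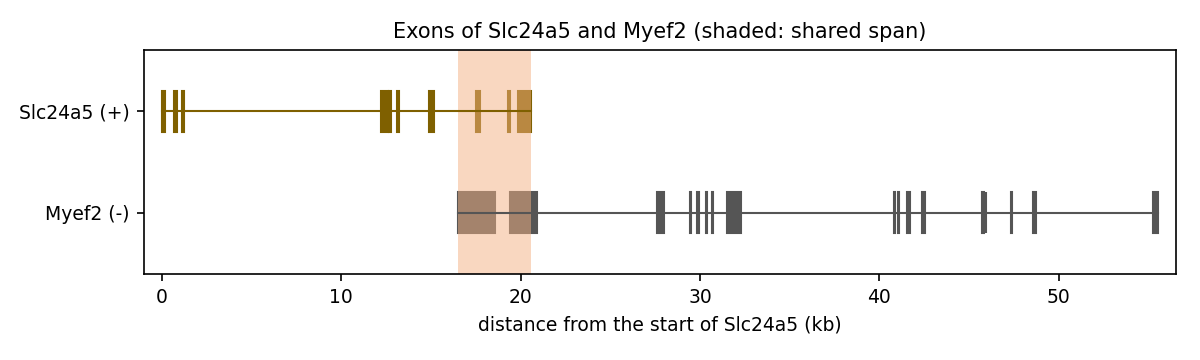
Exons (boxes) of Slc24a5 and Myef2 in the GENCODE M21 annotation of GRCm38, against distance in kilobases from the start of Slc24a5, with the shared span of 4050 bases shaded. The 3′ exons of both genes lie in, or reach into, the shaded stretch.

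Gpr143 (ENSMUSG00000025333, chromosome X, 152781921 to 152808646, plus strand), the gene of ocular albinism and a receptor of the melanosome membrane, was close to the limit of detection. It had 4, 2 and 3 fragments in Myrf-kd 1, 2 and 3 and 0, 4 and 5 fragments in WT 1, 2 and 3, and the 0 in WT 1 allows up to 3 fragments. A difference was not detectable at this depth, with a 95% interval from 20.3% to 441% of WT. Mitf (ENSMUSG00000035158, chromosome 6, 97807052 to 98018707, plus strand) was at 1.05, 0.863 and 1.31 FPKM across Myrf-kd 1, 2 and 3, against 0.433, 0.718 and 1.18 FPKM across WT 1, 2 and 3. Myrf-kd 3 and WT 3 were the high libraries and WT 1 the lowest. Tyrp1, Dct and Mlana were highest in Myrf-kd 1, and Mitf was not. Myrf-kd 3 and WT 3 were also the 2 libraries with the female transcript Xist, at 69.6 and 58.9 FPKM against at most 0.397 FPKM in the other 4. With sex as a covariate the Mitf estimate was 0.51 (edgeR adjusted p = 0.679), and without it the log2 fold change was 0.45 ± 0.36 (SE; edgeR adjusted p = 0.762). The table sums all Mitf transcripts, of which GENCODE lists 8, and the form made in melanocytes cannot be separated from the others.

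The arrangement of the libraries was also described, without a test. Myrf-kd 1 was the highest of the 6 libraries in 5 of 10 genes, Tyrp1, Dct, Mlana, Slc45a2 and Oca2, as it was in 11.3% of all genes tested. For Slc45a2 and Oca2 it was only 1.11 and 1.04 times the highest other library, with 11 and 42 fragments. Nearly all genes behind that share reached a mean of 1 FPKM, and Slc45a2 and Oca2 did not. Myrf-kd 1 and WT 3 were the highest pair in 5 of 10 genes, Dct, Pmel, Mlana, Slc45a2 and Oca2, as they were in 4.58% of all genes tested. Both counts were also 5 with library-scaled counts (CPM) in place of FPKM. Tyrp1 and Mlana in Myrf-kd 1 exceeded 1.5 times the highest other library, as 0.402% of all genes tested did and 4.53% of all genes with a count. The summed FPKM of the 10 genes was 22.0, 10.9 and 11.3 in Myrf-kd 1, 2 and 3 and 14.3, 11.0 and 17.4 in WT 1, 2 and 3. The group means of the sum were 14.7 ± 6.26 and 14.3 ± 3.17 FPKM (SD, n = 3 each), a ratio of 1.03, and no test of the sum was run.

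Without Myrf-kd 1, 7 of the 10 estimates were lower in Myrf-kd and 3 were higher, and the median log2 fold change was −0.46, while that of all genes stayed at 0.00686. Myrf-kd 1 was singled out after its values were seen to be the highest for Tyrp1, Dct and Mlana. Leaving it out therefore had to lower the estimates of these genes. The intervals, counts and p-values without it are description only. In that fit Mlana and Tyrp1 turned from a higher to a lower estimate. Tyrp1 was then at 63.5% of WT (95% interval 48.3% to 83.6%; log2 fold change −0.65 ± 0.16 SE), and Dct at 51.4% (33.0% to 80.1%; −0.96 ± 0.26 SE). With Myrf-kd 1 left out, both remaining Myrf-kd libraries lay below all 3 WT libraries for Tyr, Tyrp1, Dct and Pmel, 4 of the 10 genes, as in 11.9% of all genes tested. In 0 of the 10 did they lie above all WT libraries, as in 16.8% of all genes tested. Neither Tyrp1 nor Dct passed (edgeR adjusted p = 0.510 for both, and 0 of the 10 genes passed), and their unadjusted edgeR p-values were 0.00680 and 0.0105. Without WT 3 the picture turned the other way, with 8 of 10 estimates higher and a median of 0.19.

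**Figure D3:**
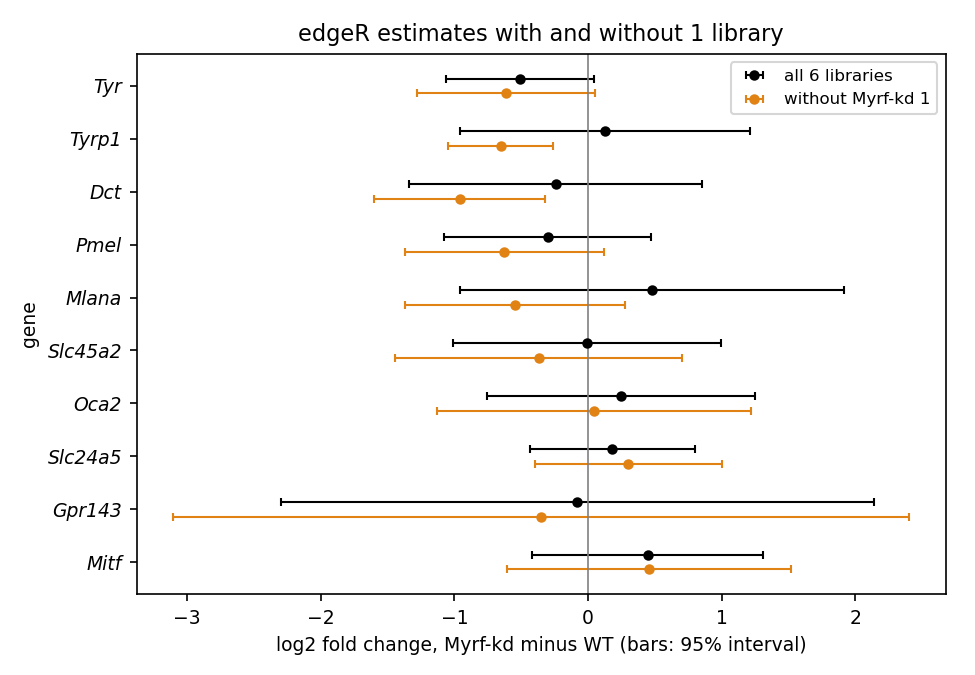
Log2 fold change (Myrf-kd minus WT) by edgeR with 95% intervals for the 10 genes, from all 6 libraries in black and without Myrf-kd 1 in orange. Without that library Tyrp1 moves from 0.13 to −0.65, Dct from −0.24 to −0.96 and Mlana from 0.48 to −0.55, while Mitf is at 0.45 and 0.46 and Tyr moves from −0.51 to −0.62.

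Markers of the pigmented tissues around the retina were set beside these values. Of 9 genes of the ciliary body and iris, 6 (Best2, Wfdc1, Otx1, Msx1, Zic1 and Bmp7) were highest in Myrf-kd 1. That library was the highest in 11.3% of all genes tested. The first 5 of the 6 exceeded 1.5 times the highest other library there, Msx1 at no more than 0.0649 FPKM. Such an excess was found in 0.402% of all genes tested and in 4.53% of all genes with a count. Best2, Otx1, Msx1 and Zic1 lay below the mean of 1 FPKM, which 3 of the 9 genes reached. Best2, a gene of the nonpigmented ciliary epithelium, was at 1.40, 0.0708 and 0.160 FPKM across Myrf-kd 1, 2 and 3, against 0.248, 0.0211 and 0.127 FPKM across WT 1, 2 and 3. In fragments, Best2 had 58 in Myrf-kd 1 and between 1 and 10 in the other 5 libraries. Wfdc1 was at 4.60 FPKM in Myrf-kd 1 and between 2.24 and 2.70 FPKM elsewhere, Zic1 at 1.36 FPKM and between 0.692 and 0.829 FPKM, and Otx1 at 0.260 FPKM and at most 0.0676 FPKM. Wnt2b, Des and Myh11 were not highest in Myrf-kd 1. The summed list was 14.2 FPKM in Myrf-kd 1 and between 8.94 and 10.7 FPKM in the other 5 libraries, so this list and the pigment genes were both highest in the same library. Its part in the pigment gene levels was not tested. None of its 3 tested members passed between the groups by edgeR (0 with an unadjusted p under 0.05, and a smallest adjusted p of 0.792).

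The retinal pigment epithelium list of 15 genes had another order of libraries. Rpe65, the retinoid isomerase that regenerates visual pigment, was at 5.97, 8.98 and 12.6 FPKM across Myrf-kd 1, 2 and 3, against 10.6, 11.8 and 14.8 FPKM across WT 1, 2 and 3. Myrf-kd 1, the library with the most Tyrp1 and Mlana, thus had the least Rpe65. The retinal G protein-coupled receptor gene Rgr was at 7.49 FPKM there and between 7.81 and 10.9 FPKM elsewhere. Ttr, the gene of the retinol carrier transthyretin, was at 34.6, 36.0 and 48.1 FPKM across Myrf-kd 1, 2 and 3, against 43.7, 47.9 and 65.0 FPKM across WT 1, 2 and 3 (edgeR adjusted p = 0.685). Myrf-kd 1 was the lowest library in 5 of the 15 genes (12.5% of all genes tested) and the highest in 1, Best1 (11.3% of all genes tested). Best1 was at 0.254 FPKM there and between 0.116 and 0.243 FPKM elsewhere. In the remaining genes of the list Myrf-kd 1 was neither the highest nor the lowest library. WT 3, the other library with high Dct and Pmel, had the highest sum of this list, 250 FPKM, against 190 FPKM in Myrf-kd 1 and 187 to 219 FPKM in the remaining 4. Most of that sum came from Rlbp1, a retinoid-binding protein gene that Müller glia also make, at 104 FPKM in WT 3 and 89.9 FPKM in Myrf-kd 1, and from Ttr. Without Rlbp1 the sum was 147 FPKM in WT 3, 100.4 FPKM in Myrf-kd 1 and between 101 and 131 FPKM in the remaining 4. The part of this list in the pigment gene levels of WT 3 was not tested. Of 12 tested members 10 had lower estimates in Myrf-kd and 2 higher, with a median log2 fold change of −0.26 and 0 past the test by edgeR (2 with an unadjusted p under 0.05, the lactate transporter gene Slc16a8 and the peropsin gene Rrh). Lower estimates were found in 48.9% of all genes tested, and an unadjusted edgeR p under 0.05 in 7.47%.

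**Figure D4:**
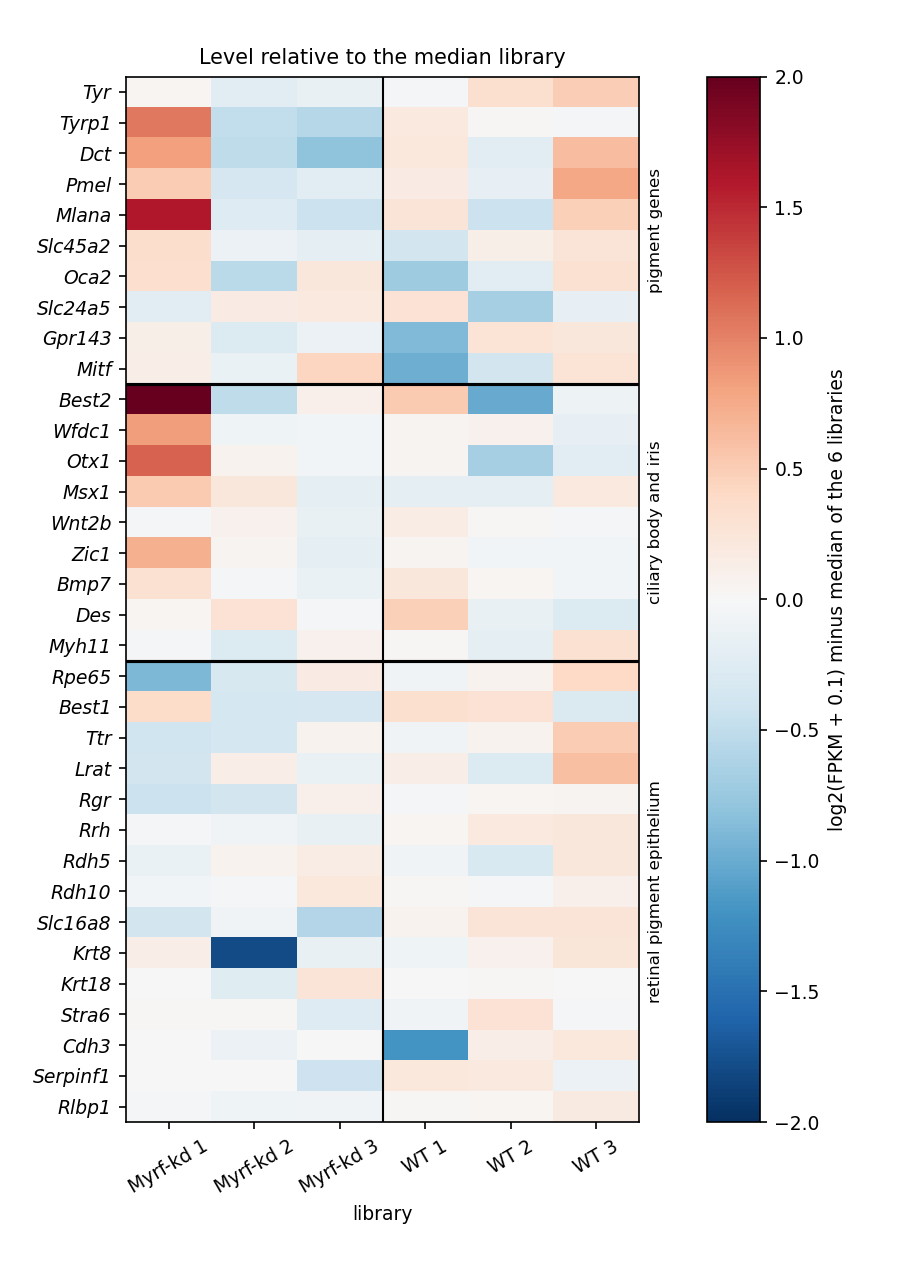
Level of each pigment gene, each ciliary body and iris gene and each pigment epithelium gene per library, as log2(FPKM + 0.1) minus the gene's median over the 6 libraries, with the colour scale ending at −2 and 2. Myrf-kd 1 is red for Tyrp1, Dct, Mlana, Best2, Otx1, Wfdc1 and Zic1 and blue for Rpe65, and WT 3 is red for Dct, Pmel, Ttr and Rpe65, deeper than Myrf-kd 1 for Pmel.

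Of 5 melanocyte markers outside the set, Pax3 was without signal in all 6 libraries and Sox10, which oligodendrocyte lineage cells also make, was between 0.0515 and 0.175 FPKM. Kit was between 0.694 and 0.914 FPKM and the melanocortin receptor gene Mc1r between 0.900 and 2.11 FPKM, the latter a range that overlaps those of Mlana and Tyrp1. The endothelin receptor gene Ednrb was at 0.499 FPKM in Myrf-kd 1, its lowest library, at 0.517 FPKM in WT 3 and between 1.04 and 1.19 FPKM in the other 4. The summed list ran from 3.07 to 4.16 FPKM with Myrf-kd 1 at 3.38. The cornea list, at 0.886 to 3.31 FPKM in the Myrf-kd libraries against 7.47 to 11.7 FPKM in WT, was lowest in Myrf-kd 1. Of its 3 tested members all had lower estimates in Myrf-kd and 0 passed by edgeR (3 with an unadjusted p under 0.05). The lens list was highest in Myrf-kd 3, at 28.2 FPKM against 1.13 to 6.82 FPKM elsewhere, with 0 of its 3 tested members past the test (0 with an unadjusted p under 0.05 by edgeR), and Myrf-kd 3 held the least Dct and Tyrp1. The choroid stroma and vessel list ran from 10.4 to 13.0 FPKM in the Myrf-kd libraries and from 12.3 to 15.4 FPKM in the WT libraries. Of its 5 tested members 0 passed by edgeR and 1 had an unadjusted p under 0.05, as had 7.47% of all genes tested. In 5 of its 11 genes, Col1a1, Col3a1, Dcn, Lum and Cdh5, all Myrf-kd libraries lay below all WT libraries, and in 14.5% of all genes tested the groups separated in one direction or the other. The first 4 of these lay below the minimum for testing. The part of this list in the pigment gene levels was not tested. In 55 genes with a mean of at least 1 FPKM, Myrf-kd 1 exceeded 1.5 times the highest other library. Ranked by that ratio, Gm10108, Fbln1, the opticin gene Optc, Gpx3 and Penk came first. Optc, a product of the nonpigmented ciliary epithelium, and Gpx3, a secreted glutathione peroxidase gene, were chosen after their values were seen. Optc was at 6.97 FPKM in Myrf-kd 1 and at most 0.722 FPKM elsewhere, and Gpx3 at 71.1 FPKM and at most 7.75 FPKM. Penk was at 42.3 FPKM there and at most 5.89 FPKM elsewhere.

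**Figure D5:**
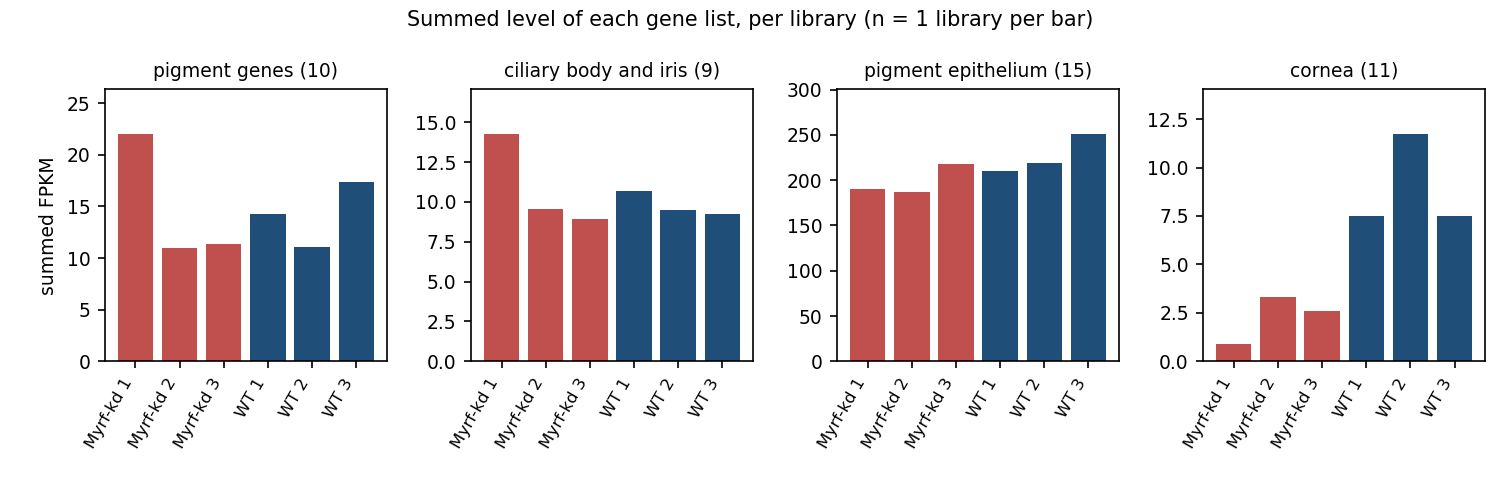
Summed FPKM of 4 gene lists per library (1 bar per library, each axis from 0, Myrf-kd in red and WT in blue). The pigment genes and the ciliary body and iris list both peak in Myrf-kd 1, at 22.0 and 14.2 FPKM, while the pigment epithelium list peaks in WT 3 at 250 FPKM.

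None of the tested genes of the wider melanosome machinery, much of which other tissues share, passed between the groups. Of 27 genes of melanosome biogenesis and transport, 23 were tested, 16 had higher and 7 lower estimates in Myrf-kd, and 0 passed (0 with an unadjusted p under 0.05 by edgeR), with a median log2 fold change of 0.07. Higher estimates were found in 51.1% of all genes tested, and an unadjusted edgeR p under 0.05 in 7.47%. Myo5a, the motor that carries melanosomes along actin, was at 14.7, 13.9 and 12.9 FPKM across Myrf-kd 1, 2 and 3, against 14.3, 5.13 and 4.53 FPKM across WT 1, 2 and 3. WT 1 stood with the Myrf-kd libraries and apart from the other 2 WT libraries (log2 fold change 0.78 ± 0.41 SE; edgeR adjusted p = 0.696). Without WT 1, Myo5a passed (log2 fold change 1.49 ± 0.10 SE; edgeR adjusted p = 0.0173), and in the omissions of the other 5 libraries its adjusted p was at least 0.655. Bloc1s6, a subunit of the complex that sorts cargo to melanosomes, was at 9.04 ± 1.37 FPKM in the Myrf-kd group, against 5.75 ± 2.66 FPKM in WT (SD, n = 3 each; edgeR adjusted p = 0.693). The small GTPase gene Rab27a, which links melanosomes to Myo5a, was at 3.25 ± 0.14 and 3.77 ± 0.235 FPKM, and the Hermansky-Pudlak syndrome gene Hps3 at 6.15 ± 0.825 and 7.17 ± 0.566 FPKM. Rab38, which delivers tyrosinase-family cargo, lay below the minimum for testing at 0.281 to 0.574 FPKM. Myrf-kd 1 was its highest library, and all its Myrf-kd libraries lay above all WT libraries. The groups separated, in one direction or the other, in 4 of the 27 genes of this list, as in 14.5% of all genes tested.

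Of 11 genes for melanosomal ions, copper and cystine, 9 were tested, 4 with higher and 5 with lower estimates, and 0 passed by edgeR (0 with an unadjusted p under 0.05), while the median log2 fold change was −0.02. The copper pump gene Atp7a, which loads tyrosinase with its metal, was at 1.09 ± 0.0679 FPKM in the Myrf-kd group, against 1.24 ± 0.194 FPKM in WT, and the copper importer gene Slc31a1 at 10.8 ± 1.11 and 9.76 ± 0.873 FPKM (SD, n = 3 each). The lysosomal channel gene Mcoln1 was at 8.11 ± 0.262 and 8.46 ± 0.175 FPKM. Gpnmb, a melanosomal glycoprotein gene that macrophages also make, was at 3.42, 2.03 and 1.05 FPKM across Myrf-kd 1, 2 and 3, against 2.76, 2.42 and 3.03 FPKM across WT 1, 2 and 3, again with Myrf-kd 1 highest.

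Of 17 regulators of pigment cells, 16 were in the table and 7 were tested, 5 with higher and 2 with lower estimates and 0 past the test by edgeR (2 with an unadjusted p under 0.05). Higher estimates were found in 51.1% of all genes tested, and an unadjusted edgeR p under 0.05 in 7.47%. The Kit ligand gene Kitl was at 1.23 ± 0.29 FPKM in the Myrf-kd group, against 0.812 ± 0.0877 FPKM in WT, and Pax6, which amacrine and ganglion cells also make, at 15.4 ± 1.88 and 13.1 ± 0.256 FPKM (SD, n = 3 each; edgeR adjusted p = 0.667 for both). The glial and pigment epithelium factor gene Sox9 was at 2.72 ± 0.0639 and 2.43 ± 0.355 FPKM, and the Mitf relative Tfe3 at 4.96 ± 0.238 and 5.19 ± 0.254 FPKM. The median log2 fold change of this list was 0.07, and Pax3 and Tfec were without signal in all libraries. Of 11 other genes known as Mitf targets, 6 were tested, 2 with higher and 4 with lower estimates and 0 past the test by edgeR. An unadjusted edgeR p under 0.05 was found for 1 of them, as for 7.47% of all genes tested. Tbx2, a T-box factor gene, was at 15.8 ± 0.372 FPKM in the Myrf-kd group, against 18.0 ± 1.33 FPKM in WT (SD, n = 3 each). The median log2 fold change was −0.22. Trpm1, named melastatin for its melanocyte expression and the channel of ON bipolar cells in retina, was at 10.4 ± 0.472 and 12.1 ± 2.07 FPKM.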

How the data were processed

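Total RNA of retina, extracted with Trizol per the labels, was sequenced from 3 Myrf-kd and 3 WT samples. The deposited table gives estimated counts and FPKM per gene, made by the authors; the submitters' processing notes name HISAT2 2.0, StringTie 1.3.0, Bowtie 0.12.2 and GRCm38, with no role or order. Libraries were made with standard Illumina methods per the labels, and no source used here names the strand of counting. The deposited counts were not whole fragments: 4 was the commonest low value, so about 4 units were taken as 1 fragment, and the authors' FPKM gives 0.0001 where a gene had no reads.

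The estimated counts were rounded and fitted with edgeR 4.0.16 (R 4.3.3; quasi-likelihood test, TMM factors, genotype only, two-sided). The 13673 genes whose FPKM averaged 1 or more entered, plus the pigment genes below it and Myrf, 13679 in all, since Xist already passed. P-values were adjusted by Benjamini-Hochberg over all of them, with a threshold of 0.05. Fold changes come from this fit and levels from FPKM. The counts' unit inflates nominal depth about 4-fold, and counts divided by 4 were tried as an alternative. Other alternatives were DESeq2 1.42.0, limma 3.58.1 on log2(FPKM + 1) and log2(FPKM + 0.1), other filters, a replicate block, sex as a covariate and each library left out.

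The members and lists were chosen with earlier results of these data known, so no list was tested as a set. Named genes are the 10 members, Myrf, up to 4 genes of each list with the smallest p, and the 6 genes nearest to the members' mean profile. Best2, Otx1, Zic1, Msx1, Des, Myh11, Rpe65, Rgr, Best1, Rab38, Sox10, Kit, Ednrb, Col1a1, Col3a1, Dcn, Lum, Gnat1, Optc, Gpx3, Gm10108, Fbln1 and Penk were named after their values were seen. Replicate pairs differed beyond counting noise (chi-square per degree of freedom 14.0 to 26.1), so none was treated as the same library deposited again, and repeat libraries of 1 animal would not be found this way.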

Additional observations from a re-analysis of the deposited data

How the results depend on the processing

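No pigment gene passed the threshold in any of 16 alternatives (smallest adjusted p 0.510), and Tyr stayed lower and Mitf higher in Myrf-kd in all of them. Of all genes tested, 6 passed with edgeR, 53 with the DESeq2 test, 2 with a mean FPKM of at least 5, 0 with the replicate block and 9 to 16 when each library was left out in turn; the cause was not tested. Same-numbered samples correlated at −0.04, 0.08 and 0.14 in their deviations from the group means, and 3 of 6 libraries correlated best with their own number, so the numbers were not taken to pair the samples, although the third of each group also share the presence of Xist. The replicate block turned Tyrp1 to −0.10 and Gpr143 to 0.16 (log2 fold change). On log2(FPKM + 1), Tyrp1 was −0.013 and Slc45a2 0.00022. On log2(FPKM + 0.1), Tyrp1 was −0.070, Slc45a2 0.0030 and Gpr143 0.037. Slc45a2 was 0.0029 with a mean FPKM of at least 5 and 0.11 with counts divided by 4. With each library left out in turn, the estimates ran from −0.65 to 0.41 for Tyrp1, −0.96 to 0.053 for Dct, −0.63 to 0.015 for Pmel, −0.55 to 0.82 for Mlana, −0.37 to 0.22 for Slc45a2, −0.022 to 0.64 for Oca2, −0.025 to 0.45 for Slc24a5 and −0.68 to 0.37 for Gpr143. The number of pigment genes with a higher estimate ran from 3 (without Myrf-kd 1) to 8 (without WT 3), and their median from −0.46 to 0.19. The log2 ratio of their summed FPKM was 0.05, and ran from −0.36 to 0.22 with a library left out; without Slc24a5, an alternative chosen after seeing the data, it was 0.02. Slc45a2 and Gpr143, with at most 11 fragments per library, are limited by depth.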

Other observations

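The 10 pigment genes, each standardised over the 6 libraries on log2(FPKM + 0.1), had a mean profile of 0.83, −0.56 and −0.30 SD in Myrf-kd 1, 2 and 3 and of −0.48, −0.21 and 0.72 SD in WT 1, 2 and 3. Slc45a2 lay nearest to this mean (root mean square distance 0.501 SD) and Slc24a5, the gene that overlaps Myef2, farthest (1.25 SD). Among 11689 other genes with a mean of at least 1 FPKM, leaving out predicted gene models, the nearest were Alkbh8 (0.363), Hnrnpf (0.363), Akap11 (0.364), B3galt5 (0.374), Clk4 (0.377) and Fgfr1op (0.390). Hnrnpf, an RNA-binding protein gene, was at 105, 58.7 and 64.7 FPKM in Myrf-kd 1, 2 and 3 and at 64.1, 65.6 and 97.2 FPKM in WT 1, 2 and 3. The likeness is over the 6 libraries only.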
